A study of Mus musculus with 45 samples.

Results

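The gene set described here holds Wnt1 and Wnt10b, a pair of neighbouring Wnt ligand genes, together with Lrp6, Ctnnb1, Apc, Axin1 and Axin2, which carry or restrain the canonical Wnt signal. Its members were all array probes whose gene name was one of these 7 symbols, and there were 13 such probes among 42235 probes on the mouse array. DNA copy number was measured by array comparative genomic hybridization, in which tumor DNA and a pooled normal mouse DNA carry different dyes and compete for the same probes, in 45 mammary tumors of female mice from 8 genetically engineered models. The models were MMTV-Wnt1, MMTV-c-Myc (called MMTV-Myc here), MMTV-Her2/neu, MMTV-H-Ras (MMTV-HRas), C3(1)/SV40 T/t-antigens (C3(1)-Tag) and BRCA1fl/fl;p53+/-;MMTV-cre (BRCA1-/-;p53+/-) with 5 tumors each, p53fl/fl ;MMTV-cre transplant (p53-/-) with 6 and MMTV-PyMT with 9. All tumors were set against the same kind of reference DNA, named as spleen by its source label, while another label of that channel also names normal mammary tissue. In the MMTV models the mouse mammary tumor virus promoter drives the transgene, or the Cre recombinase that deletes floxed alleles, mainly in mammary epithelium, so an allele can remain intact in stromal cells of the tumor. The p53-/- tumors grew from transplanted mammary tissue in host mice. A tumor's ratio depends both on the copies in its tumor cells and on their share of the tissue, and those cannot be told apart.

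Wnt ligands such as Wnt1 bind Frizzled receptors together with the co-receptor Lrp5 or Lrp6. Without ligand, a destruction complex built on Apc and the scaffolds Axin1 and Axin2 marks beta-catenin, the product of Ctnnb1, for degradation, and with ligand beta-catenin enters the nucleus and drives transcription with Tcf and Lef factors. Wnt1 was identified as a gene activated by insertion of mouse mammary tumor virus in mammary tumors, and the MMTV-Wnt1 transgene places Wnt1 sequence under the control of that virus.

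Values are log2 ratios of the Cy3 channel over the Cy5 channel, centred on the median of the autosomal probes of each array, so that 0 stands for the typical autosomal copy number and 1 for a doubled ratio. By the labels the tumor DNA carries Cy5 and the normal DNA Cy3, which is the opposite direction. Of the 755 intervals in the authors' own interval table that hold at least 3 probes and exceed 0.2 in size, 740 (98.0%) had the sign of Cy3 over Cy5, and this direction was used throughout. With the dyes as labelled every value below has its sign turned. The spread of an array, a robust SD of log2 ratios taken from differences between adjacent probes, ran from 0.158 to 0.475, and 96.6% to 99.8% of its spots stood well above background in each of its channels. The MMTV-Wnt1 tumor Wnt_4635 stood apart from the other 4 MMTV-Wnt1 tumors at the Wnt1 probe, and its array had the lowest spread of all 45. Its value goes against its label, and it is included in every MMTV-Wnt1 value of n = 5. A pair of arrays of different models, MMTV-Her2/neu H2N61 and C3(1)-Tag C3TAg_7RPT, had nearly the same segment levels over the autosomes (r = 0.98, rank 1 of 990 pairs), and MMTV-Her2/neu H2N53 and C3(1)-Tag C3TAg_5RPT ranked 3 (r = 0.85). The median over the other pairs of different models was 0.04.

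The Wnt1 probe lies on chromosome 15 at 98621829 to 98621888 of the mm8 build. Whether the probe lies in an exon, an intron or an untranslated region, and whether the transgene contains its sequence, was not determined here. In the MMTV-Wnt1 tumors the log2 ratio at this probe was 1.50 in Wnt_4675, 1.35 in Wnt_4677, 1.33 in Wnt_4676, 1.07 in Wnt_4679 and 0.07 in Wnt_4635. Wnt_4635 lay inside the range of the other models, and the remaining 4 tumors lay above every one of them. The 40 tumors of the other models ran from -0.45 to 0.80 with a median of 0.16, and the highest of them was the MMTV-Myc tumor C Myc_04004021. The model means, in falling order, were 1.06 ± 0.57 in MMTV-Wnt1 (SD, n = 5), 0.33 ± 0.19 in MMTV-HRas (n = 5), 0.30 ± 0.13 in BRCA1-/-;p53+/- (n = 5), 0.15 ± 0.40 in MMTV-Myc (n = 5), 0.11 ± 0.29 in p53-/- (n = 6), 0.09 ± 0.27 in C3(1)-Tag (n = 5), 0.02 ± 0.31 in MMTV-PyMT (n = 9) and -0.01 ± 0.20 in MMTV-Her2/neu (n = 5). Below the first place, neighbours in that order differed by less than the larger of their SDs.

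**Figure D1:**
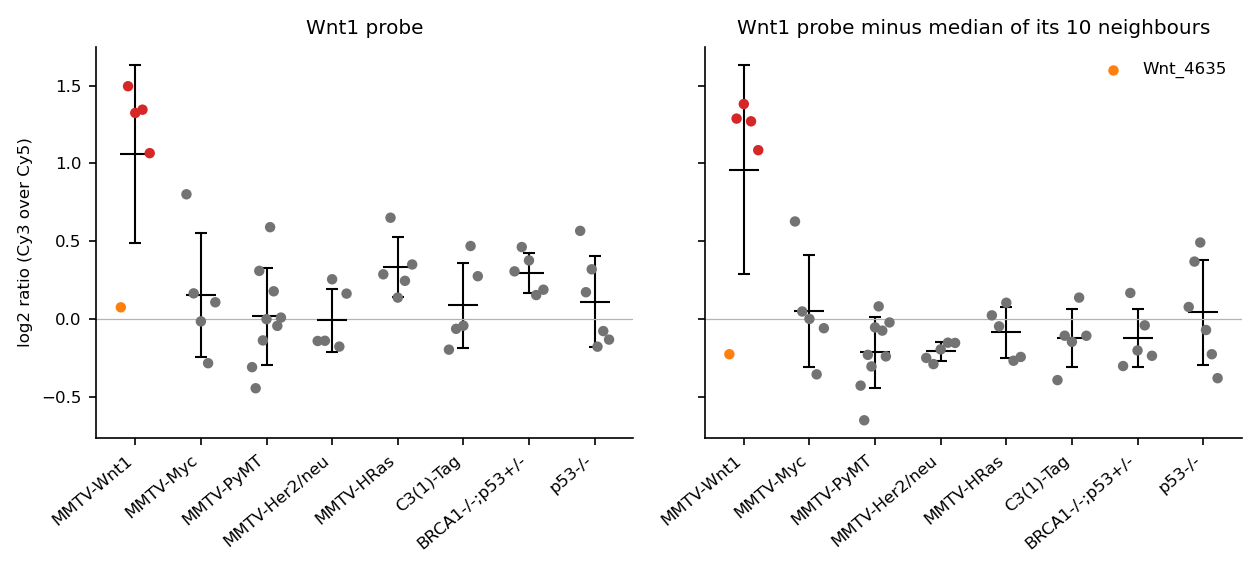
Log2 ratio at the Wnt1 probe (vertical axis, Cy3 over Cy5, centred) in each of the 45 tumors, by model, with the mean and SD of each model. The MMTV-Wnt1 tumors other than Wnt_4635 sit between 1.07 and 1.50, and all tumors of the other models sit at or below 0.80.

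The MMTV-Wnt1 tumors exceeded the other 40 by 0.93 (two-sided exact permutation test, p = 2.947e-05). The exact tests here and below treat all arrays as exchangeable. However, Wnt_4675, Wnt_4676 and Wnt_4677 shared a slide and a scan date that held no other tumor. Wnt_4635 was alone on its own slide and scan date, so its difference from them cannot be told apart from slide or date. Without Wnt_4635 the difference was 1.18, a mean of 1.31 ± 0.18 (n = 4), which is a 2.48-fold ratio. That tumor was set aside for its Wnt1 value, so this difference is given with no test. Set against each other model in turn, the difference ran from 0.73 against MMTV-HRas (exact permutation p = 0.0476, adjusted over the 7 tests) to 1.07 against MMTV-Her2/neu (exact permutation, adjusted p = 0.0417). In the limma fit across all probes, the Wnt1 probe was higher in MMTV-Wnt1 than in the mean of the other 7 models by 0.92 (SE 0.15, adjusted p = 0.00414), where 0.0426% of all probes were called higher and 0.0189% lower in this contrast. This call was lost with the scan date as a random block (limma adjusted p = 0.0756) and without Wnt_4675 (limma adjusted p = 0.0819).

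Within the window around the gene, the excess was seen at the Wnt1 probe alone. The 10 probes nearest to it, in a window of 105.2 kb, cover Arf3, which encodes an ADP-ribosylation factor, Wnt10b, Prkag1, which encodes a subunit of the AMP-activated kinase, Kmt2d, which encodes a histone methyltransferase, and the transcripts AK029284, AK122363 and BC009120. Over the 4 raised MMTV-Wnt1 tumors the means of these 10 probes lay between -0.21 and 0.21, and the highest single value was 0.46. The nearest of them, AK122363 at 10.8 kb and the Wnt10b probe at -18.5 kb, flank the Wnt1 probe on either side. Between MMTV-Wnt1 and the other models, the 10 neighbours differed by -0.25 to -0.04, so all lay slightly lower in MMTV-Wnt1.

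The focal excess, the Wnt1 value minus the median of its 10 neighbours in the same tumor, was 1.29 in Wnt_4675, 1.38 in Wnt_4676, 1.27 in Wnt_4677, 1.09 in Wnt_4679 and -0.23 in Wnt_4635. It ran from -0.65 to 0.63 in the other 40 tumors, with a mean of -0.10 ± 0.24. The same 4 tumors again lay apart from all others, and their spread narrowed from 0.18 to 0.12 once the neighbours were taken off. The difference between MMTV-Wnt1 and the other models was 1.06 (two-sided exact permutation test, p = 2.619e-05), and 1.36 without Wnt_4635.

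**Figure D2:**
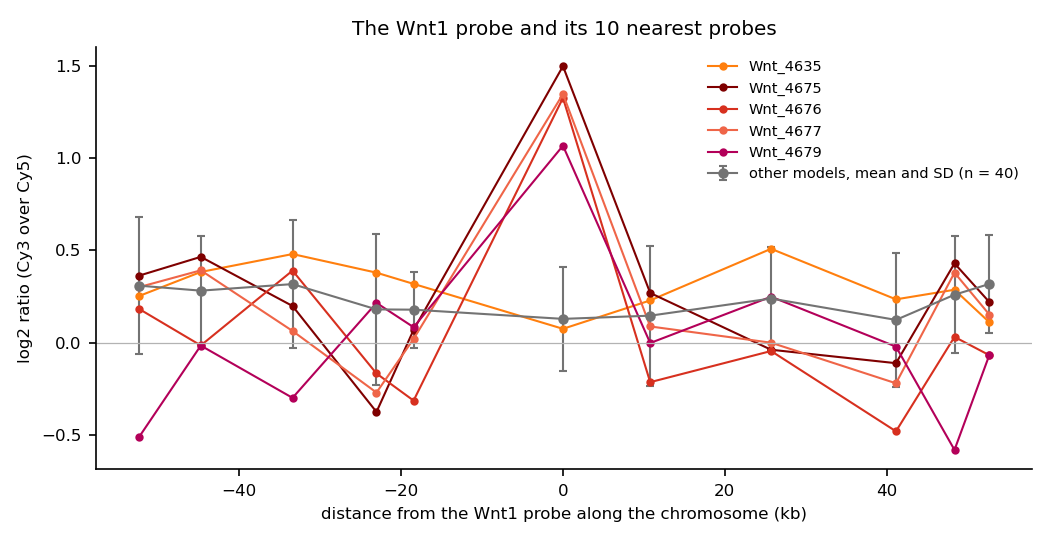
Log2 ratio at the Wnt1 probe and its 10 nearest probes against distance from the Wnt1 probe in kb, for each MMTV-Wnt1 tumor and for the mean and SD of the 40 other tumors. In the 4 raised tumors the probe at distance 0 reads 1.07 to 1.50, above every neighbour (at most 0.46), and Wnt_4635 reads 0.07 there.

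The separate channels showed where the difference lay. Relative to the median of its own channel on each array, the Cy3 signal of the Wnt1 probe was 0.53 ± 0.15 (log2, SD, n = 4) in the raised MMTV-Wnt1 tumors, -0.81 in Wnt_4635 and -0.98 ± 0.30 (n = 40) in the other models. The Cy5 signal was -0.78 ± 0.32 (n = 4), -0.87 and -1.11 ± 0.28 in the same order. The Cy3 level of the 4 tumors was thus well above that of all others, while the Cy5 levels overlapped. This probe exceeded background on all 45 arrays and was saturated on 0.

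The 4 raised tumors were all hybridized on arrays with 1 setting of the dye normalization in the file headers, which only 6 of the 45 arrays carried. The other 2 of those 6 were the MMTV-PyMT tumors PyMT_11567 (-0.31) and PyMT_11570 (-0.45), which had the lowest Wnt1 values of all. Within these 6 arrays, a subset chosen after seeing the data, the Wnt1 difference was 1.69 and the focal difference 1.80, and 4 against 2 cannot give an exact permutation p below 0.06667. On the 1 slide and scan date that held both kinds of tumor, Wnt_4679 exceeded the 2 MMTV-PyMT tumors by 1.44, a value of 1 tumor against 2 with no test. On the 39 arrays of the other setting, Wnt_4635 differed from the 38 tumors of the other models with which it shared that setting by -0.08. Over all probes, Wnt_4679 correlated with PyMT_11570 on its slide (r = 0.76), although they are of different models, and PyMT_11570 with PyMT_11567 (r = 0.88). The part of the slide and of the setting in the Wnt1 values was not tested.

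Over all probes Wnt_4635 correlated best with the C3(1)-Tag tumor C3TAg_5RPT (r = 0.26), and with the other MMTV-Wnt1 tumors at 0.03 to 0.17. All of these are low, and the library labelled Wnt_4635 showed no raised Wnt1 signal. Without it, the limma difference of MMTV-Wnt1 at the Wnt1 probe was 1.17, again with no test. The tests against each other model and the pathway list include it.

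Wnt10b, the ligand gene next to Wnt1 on chromosome 15 (98603370 to 98603429, mm8), showed no such excess. Its log2 ratio in MMTV-Wnt1 was 0.32 in Wnt_4635, 0.08 in Wnt_4679, 0.07 in Wnt_4675, 0.02 in Wnt_4677 and -0.31 in Wnt_4676. These values overlapped those of the other 40 tumors, which ran from -0.23 to 0.56 with a median of 0.17. Wnt_4635, the tumor without the Wnt1 signal, had the highest Wnt10b value of its model. Model means lay between 0.03 ± 0.23 in MMTV-Wnt1 and 0.27 ± 0.30 in MMTV-HRas (SD, n = 5 each), a range no wider than the SD within MMTV-HRas. The probe was called in 0 of the 8 limma contrasts, and 0 had an unadjusted p under 0.05, where 15.8% of all pairs of a probe and a contrast did. Without Wnt_4635 its mean in MMTV-Wnt1 was -0.04 ± 0.19 (n = 4).

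To place the members within larger gains and losses, each array was cut into segments of equal copy number, and a gene was counted as gained or lost in a tumor where its segment mean was at least 0.2 or at most -0.2. Of the 315 pairs of a member and a tumor, 73 were gained and 22 lost. These are 23.2% and 6.98%, beside 13.5% and 10.8% over all autosomal probes and tumors, and the difference was not tested. Wnt1 and Wnt10b share their segments, so that region is counted at both genes. No member was gained or lost in 16 tumors, at least 1 was gained in 29 and at least 1 lost in 11, and the most in a single tumor was 6. The gained segments had a median length of 26.0 Mb and ran from 0.394 to 146.2 Mb. Of the 73, 18 covered at least 90% of a chromosome and 17 were under 10 Mb, so most carried many genes beside the member.

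**Figure D3:**
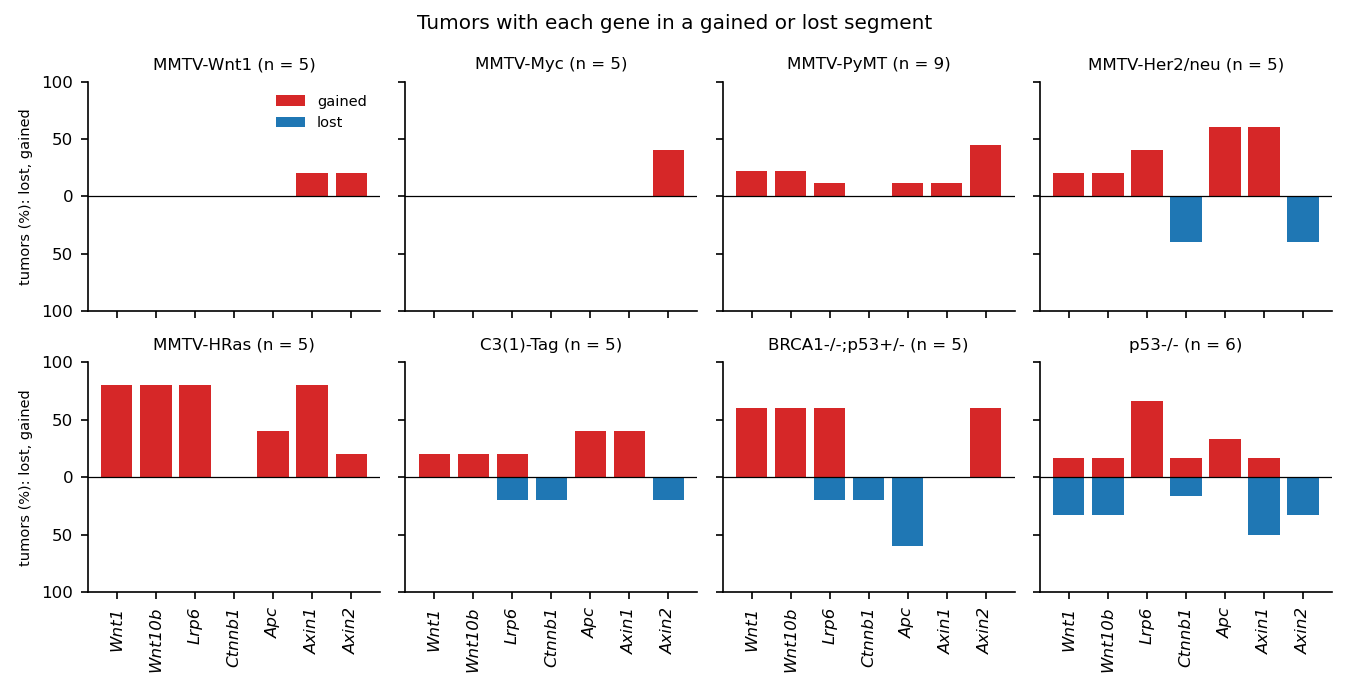
Percent of the tumors of each model (vertical axis, a panel for each model) in which each member (horizontal axis) lay in a gained or a lost segment. Bars above the line show gains and bars below it losses. Wnt1, Wnt10b, Lrp6 and Axin1 were each gained in 4 of 5 MMTV-HRas tumors, and Apc was lost in 3 of 5 BRCA1-/-;p53+/- tumors.

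By model, MMTV-HRas had the most gained pairs, 19 of 35 with 0 lost, where 22.4% of autosomal probes were gained and 3.03% lost. The p53-/- tumors had 10 gained and 10 lost of 42 (background 28.4% and 25.9%), and BRCA1-/-;p53+/- had 12 and 5 of 35 (16.9% and 19.4%). MMTV-PyMT had 11 gained and 0 lost of 63 (7.31% and 0.709%), MMTV-Her2/neu 10 and 4 of 35 (13.3% and 21.4%) and C3(1)-Tag 7 and 3 of 35 (13.4% and 19%). MMTV-Wnt1 and MMTV-Myc had 2 gained pairs each and 0 lost of 35, where 6.08% and 2.12% of autosomal probes were gained and 2.02% and 0.151% lost. Without Wnt_4635 the count in MMTV-Wnt1 was 1 gained and 0 lost of 28. The raised Wnt1 probe itself formed no segment, since a segment needed at least 5 probes.

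Wnt1 and Wnt10b were always gained or lost together. The region was gained in 12 tumors, in 4 of 5 MMTV-HRas, 3 of 5 BRCA1-/-;p53+/-, 2 of 9 MMTV-PyMT and 1 each of C3(1)-Tag, MMTV-Her2/neu and p53-/-, in segments of 7.94 to 100.2 Mb. In Hras_An1_3 and Hras_An4_3 the whole of chromosome 15 was gained, with segment means of 0.62 and 0.43. The whole chromosome was also gained in C3TAg_7RPT (0.24) and H2N61 (0.26), the C3(1)-Tag and MMTV-Her2/neu cases. This is the pair of nearly equal profiles, so these gains are not clearly separate either. The region was lost in P53_2979 and P53_5809, within the same 35.4 Mb and with segment means of -0.41 and -0.31. These 2 arrays correlated at 0.85 over all probes and had equal break points there, so they are not clearly separate cases. In P53_2979 and P53_5809 the Wnt1 probe itself read 0.17 and 0.32 and the Wnt10b probe 0.03 and -0.08, so neither followed its segment. The spread of these arrays was the third highest (0.448) and the highest (0.475), and its part in this was not tested.

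Lrp6, the co-receptor gene on chromosome 6 (probes between 134451324 and 134528360, mm8), was the member gained most often in the segments cut here, in 15 tumors. In the authors' intervals it was gained in 16, as were Wnt1 and Wnt10b. Its mean log2 ratio was 0.51 ± 0.44 in BRCA1-/-;p53+/- (SD, n = 5), 0.46 ± 0.43 in MMTV-HRas (n = 5), 0.45 ± 0.46 in p53-/- (n = 6), 0.38 ± 0.45 in MMTV-Her2/neu (n = 5) and 0.22 ± 0.53 in C3(1)-Tag (n = 5), and between -0.04 and 0.09 in MMTV-Myc, MMTV-Wnt1 and MMTV-PyMT. In each of these first 5 models high and low tumors stood side by side. In the first of them the ratio was 1.07 in Brca_54, 0.81 in Brca_42, 0.41 in Brcap53_682, 0.32 in Brcap53_503 and -0.04 in Brca_14. In MMTV-HRas it was 0.89 in Hras_An1_3, 0.78 in Hras_An3_3, 0.41 in both Hras_An4_3 and Haras_An5_3RPT and -0.21 in Hras_An2_3. In p53-/- it ran from -0.18 to 1.09 with a median of 0.52. The gains were of different length, from the whole chromosome in Hras_An4_3 and PyMt435 to 0.394 Mb in C3TAg_7RPT and 0.424 Mb in H2N61, whose segment means were 1.03 and 0.96. These last 2 arrays are the pair of nearly equal profiles. Neither Lrp6 probe was called in any of the 8 limma contrasts, where 4 of 16 probe and contrast pairs had an unadjusted p under 0.05 (15.8% of all such pairs) and the smallest adjusted p was 0.136.

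Ctnnb1, which encodes beta-catenin, lies on chromosome 9 (120787894 to 120799786, mm8) and was lost in 5 tumors and gained in 1. In the authors' intervals it was lost in 2 and gained in 5, and 1 loss was in both, so the balance of its gains and losses turned with the caller. Its mean log2 ratio was highest in MMTV-Wnt1 at 0.17 ± 0.30 and lowest in BRCA1-/-;p53+/- at -0.16 ± 0.31 (SD, n = 5 each), so the models overlapped widely. The single tumors ran from 0.62 in Wnt_4676 and 0.57 in Hras_An1_3 down to -0.59 in Brca_14. The loss in Brca_14 spanned 57.1 Mb and that in H2NA 3.99 Mb. In H2N53 and P53_8546 the loss was a segment of 5 probes while the Ctnnb1 probes themselves read 0.12 and -0.18. The gene was called in 0 of 8 limma contrasts, with 2 of 16 pairs at an unadjusted p under 0.05, a share below that of all probes. Without Wnt_4635 its mean in MMTV-Wnt1 was 0.25 ± 0.28 (n = 4).

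**Figure D4:**
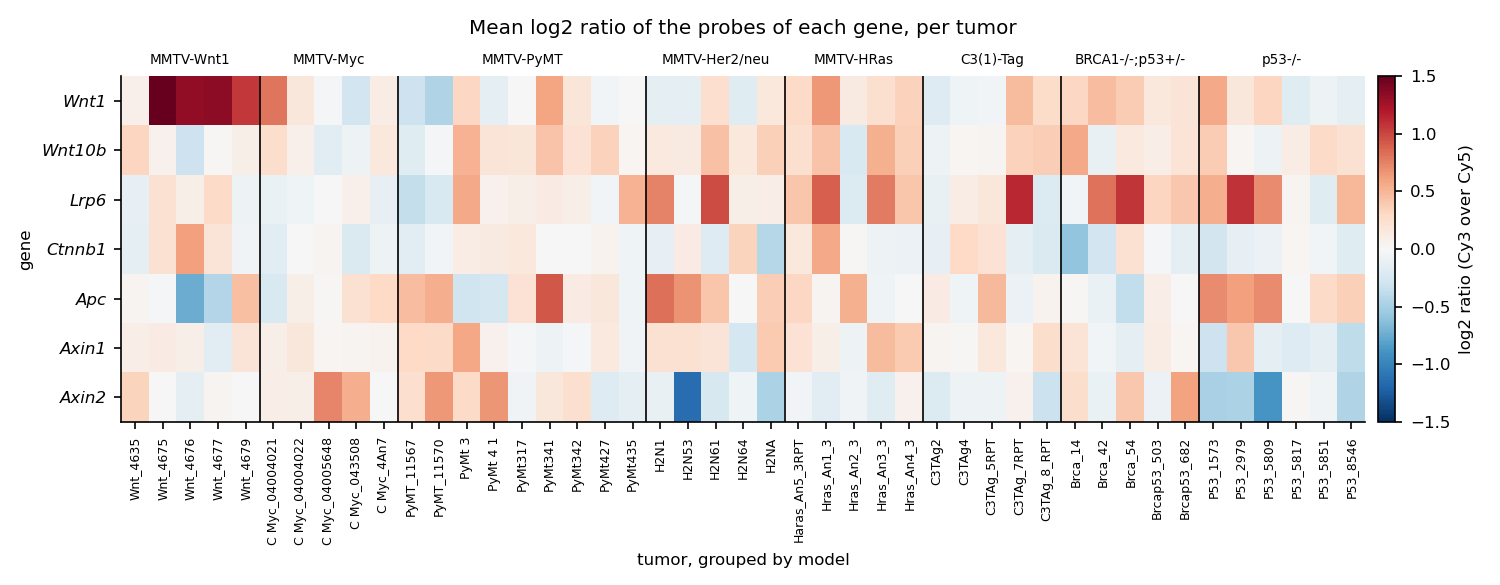
Mean log2 ratio over the probes of each member (rows) in each of the 45 tumors (columns, grouped by model), on a colour scale centred on 0. The Wnt1 row is raised in 4 MMTV-Wnt1 tumors, and the Lrp6 row is raised in scattered tumors of 6 models, up to 1.13 in C3TAg_7RPT.

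Apc, the tumor suppressor that holds the destruction complex together, lies on chromosome 18 and had 2 probes, at 34353150 and 34388769 (starts, mm8). At the first of them the p53-/- tumors read 0.83 in P53_5809, 0.67 in both P53_1573 and P53_2979, 0.60 in P53_8546, 0.33 in P53_5851 and 0.26 in P53_5817. All 6 lay above 0, but P53_2979 and P53_5809 are not clearly separate cases, and the limma fit counts both. The BRCA1-/-;p53+/- tumors read 0.00 in Brca_14, -0.01 in Brcap53_503, -0.25 in Brca_42, -0.72 in Brcap53_682 and -0.77 in Brca_54, so 2 were at about 0 and 3 below it. By limma the probe was higher in p53-/- than in the mean of the other 7 models by 0.52 (SE 0.14, adjusted p = 0.00867), where 9.19% of all probes were called higher and 7.21% lower. It was lower in BRCA1-/-;p53+/- (difference -0.53, SE 0.15, limma adjusted p = 0.0290), where 2.18% were called higher and 2.83% lower.

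The second Apc probe did not pass in either contrast, with differences of 0.15 (p53-/-, limma adjusted p = 0.607) and 0.02 (limma adjusted p = 0.976). In BRCA1-/-;p53+/- the probes nearest to the first Apc probe were also lower (difference -0.38), and in p53-/- they were higher by 0.10. Segments around Apc were lost in Brcap53_682, Brca_42 and Brca_54, over 11.8 to 39.9 Mb, and gained in P53_1573 and P53_5809. Apc was also gained in 3 of 5 MMTV-Her2/neu tumors, and its mean over both probes there was 0.45 ± 0.32 (n = 5), as high as the 0.45 ± 0.28 of p53-/- (n = 6). The call of the lower ratio was lost without any 1 of Brcap53_682, Brca_42 and Brca_54 (limma adjusted p up to 0.151) and with slide (0.0849) or scan date (0.303) as a random block, loess (0.0708), array weights (0.130) or normexp background correction, which gave a difference of -0.27 (limma adjusted p = 0.581). The p53-/- call was lost without P53_5809 (limma adjusted p = 0.0502), with array weights (0.101) and with normexp, which gave 0.31 (limma adjusted p = 0.163).

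Axin2, a scaffold of the destruction complex that is itself a transcriptional target of the pathway, lies on chromosome 11 (probes between 108742229 and 108765817, mm8). The mean over its 3 probes was -0.39 ± 0.33 in p53-/- (SD, n = 6) and -0.41 ± 0.44 in MMTV-Her2/neu (n = 5), against 0.30 ± 0.33 in MMTV-Myc (n = 5) and 0.21 ± 0.31 in both BRCA1-/-;p53+/- (n = 5) and MMTV-PyMT (n = 9). The p53-/- tumors ran from -0.88 in P53_5809 to 0.01 in P53_5817, with a median of -0.46, and 4 of the 6 lay between -0.88 and -0.45. Among these 4, P53_2979 (-0.48) and P53_5809 are not clearly separate cases. Of the 3 probes, 1 was called lower in p53-/- (difference -0.33, SE 0.12, limma adjusted p = 0.0453), where 7.21% of all probes were called lower, and the other 2 had limma adjusted p of 0.0530 and 0.167. The probes nearest to Axin2 were lower in p53-/- too (difference -0.37). The call held in 26 of the 45 fits that left out 1 tumor, with limma adjusted p up to 0.225 (without P53_5809), and in 5 of 12 other settings. With array weights the difference was -0.19 (limma adjusted p = 0.456), and the normexp setting gave -0.51 (limma adjusted p = 0.0189).

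The highest Axin2 ratio was 0.74 in the MMTV-Myc tumor C Myc_04005648, where a segment of 15 probes and 1.04 Mb was gained, and C Myc_043508 of the same model read 0.54. Among the MMTV-PyMT tumors 0.66 was reached in PyMt 4 1 and 0.65 in PyMT_11570. Axin2 lay in gained segments in 11 tumors, of which 4 were MMTV-PyMT and 3 BRCA1-/-;p53+/-, and in lost segments in 5. The lowest ratio of any member in any tumor, -1.14 in H2N53, rested on the probe at 108765572, which read -3.03 while the other 2 Axin2 probes read -0.14 and -0.25. Without H2N53 the MMTV-Her2/neu mean of Axin2 was -0.22 ± 0.19 (n = 4).

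Axin1, the other scaffold, lies on chromosome 17 (25881365 to 25922563, mm8) and was among the members that varied least between models. Its mean was highest in MMTV-HRas at 0.22 ± 0.22 (SD, n = 5) and lowest in p53-/- at -0.13 ± 0.28 (n = 6). In MMTV-HRas the tumors read 0.48 in Hras_An3_3, 0.39 in Hras_An4_3, 0.22 in Haras_An5_3RPT, 0.09 in Hras_An1_3 and -0.07 in Hras_An2_3. In p53-/- all tumors but P53_2979 (0.41) lay between -0.38 and -0.14, so 1 tumor set the spread of that model. Axin1 was gained in 12 tumors and lost in 3, all 3 of them p53-/-, and 0 of these 3 losses was in the authors' intervals. It was called in 0 of 8 limma contrasts, with 2 of 16 pairs at an unadjusted p under 0.05 and a smallest adjusted p of 0.0648.

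Across all 8 models the limma F-test called 4 of the 13 member probes (30.8%), where 18.5% of all probes were called. They were the Wnt1 probe (adjusted p = 0.00217), the first Apc probe (0.00688) and 2 Axin2 probes (0.0100 and 0.0170). With scan date as a random block only the Wnt1 probe remained (limma adjusted p = 0.0342). These 2 Axin2 probes lie in the same stretch of DNA and are not separate evidence. In the contrasts of 1 model with the rest, 4 of 104 pairs of a probe and a model were called (3.85%, against 3.17% of all such pairs), a share near that of all probes. Of these, 2 were higher (Wnt1 in MMTV-Wnt1, Apc in p53-/-) and 2 lower (Apc in BRCA1-/-;p53+/-, Axin2 in p53-/-). The median size of a difference over the 13 probes was largest in p53-/-, 0.26 on the log2 scale, against 0.17 over all probes, and smallest in C3(1)-Tag, 0.06 against 0.11.

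A list of 105 other genes of the Wnt pathway was read the same way, and 94 of them had a probe (178 probes). In p53-/- 14 of these probes were called higher (7.87%) and 13 lower (7.30%), shares below and close to those of all probes. In BRCA1-/-;p53+/- 4 were higher (2.25%, against 2.18% of all probes) and 6 lower (3.37%, against 2.83%), in MMTV-HRas 1 was higher (0.562%, against 1.82% of all probes) and 6 lower (3.37%, against 1.33%), and in MMTV-Myc 1 was higher (0.562%, against 0.452%) and 0 lower (against 0.0592%). No probe of the list was called by limma in MMTV-Wnt1, MMTV-PyMT (0.149% of all probes higher, 0.0379% lower), MMTV-Her2/neu (0% and 0.00474%) or C3(1)-Tag (0% and 0.00237%). At an unadjusted limma p under 0.05 these 4 models had 24, 38, 13 and 16 of the 178 probes (13.5%, 21.3%, 7.30% and 8.99%), against 12.7%, 14.3%, 10.8% and 8.86% of all probes. By the role the list gave them, 12 of 21 ligands with a probe were called in some contrast, and 6 of 13 receptors. Of the other genes grouped with the destruction complex, which need not be parts of it, 5 of 11 were called. The counts were 5 of 15 for nuclear factors, 2 of 12 for secreted inhibitors and 2 of 8 for transducers. They were 2 of 3 for genes grouped with ligand secretion, 1 of 3 for receptor turnover and 1 of 8 for targets. In all, 36 of 94 genes were called, where 33.9% of the 20798 named genes had a probe called in some contrast. The calls by gene, contrast and direction numbered 43, and fell to 14 with slide and 16 with scan date as a random block and to 24 without P53_5809.

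The largest rise in the list was at Wnt2, which encodes a Wnt ligand and lies on chromosome 6 (17947748 to 17958674, mm8). At its first probe the p53-/- tumors read 5.68 in P53_5817, 4.97 in P53_8546, 4.59 in P53_5851, 4.19 in P53_1573, 1.49 in P53_5809 and 1.07 in P53_2979. These fell into 4 tumors far above the remaining 2, and in the 4 the median of the 10 nearest probes was high as well, at 2.90 to 5.51. The 2 Wnt2 probes exceeded the mean of the other models by 3.54 (SE 0.36, limma adjusted p = 5.59e-09) and 3.09 (SE 0.42, limma adjusted p = 1.21e-06). In the 4 high tumors the probes around this ligand gene were thus raised with it. At the second Wnt2 probe P53_5809 and P53_2979 read -0.10 and 0.01, with a median of the 10 nearest probes of 0.57 and 0.63.

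In p53-/- and BRCA1-/-;p53+/- the other named list genes, Wnt16 apart, differed at single probes that their neighbours did not follow. In p53-/- a probe of Cd44, the gene for a cell surface adhesion receptor, read -4.80 to -0.36 with a median of -3.77 (difference -2.90, limma adjusted p = 2.45e-08), while the other Cd44 probe had a mean of -0.29 and the neighbours 0.11. Of the 4 probes of Nkd2, which encodes a Dishevelled-binding protein, 1 was higher by 2.56 (limma adjusted p = 0.00355) and had values from -3.09 to 4.40 over the other models, and the other 3 had means of -0.19 to -0.12. In BRCA1-/-;p53+/- a Wnt8b probe, of another ligand gene, read -4.92 to -1.57 (difference -4.20, limma adjusted p = 0.000201) with neighbours at -0.02. Over the other models this Wnt8b probe ran from -0.44 to 6.77. A Wnt9b probe was also lower in the same model (difference -1.01, limma adjusted p = 0.000561) with neighbours at 0.34. The second probe of each of these ligand genes had a mean of -0.14 and 0.16. Of the 2 probes of the ligand gene Wnt16, 1 was higher there by 0.50 (limma adjusted p = 0.0313) and the other, which was not called, by 0.29, and the neighbours of the called probe differed by 0.25.

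Casein kinase 1 delta, encoded by Csnk1d, phosphorylates several proteins of the pathway. Of its 2 probes, 1 was called higher in MMTV-Myc, by 0.69 (limma adjusted p = 0.0415), with values of 1.71, 0.84, 0.81, 0.38 and 0.15 that tracked neighbours at 1.65, 0.70, 0.61, 0.07 and 0.03 in the same tumors. The same probe was lower in MMTV-HRas (difference -0.79, limma adjusted p = 0.0105), where its neighbours had a mean of -0.04 and the second Csnk1d probe, which was not called, differed by -0.14. Also lower in MMTV-HRas were Sfrp2, a secreted Wnt antagonist (difference -0.88, limma adjusted p = 0.00802), at -1.74 in Hras_An2_3 and -1.51 in Hras_An3_3 with the remaining 3 between -0.02 and 0.10, and 1 of the 2 probes of Ctnnbip1, which blocks beta-catenin from binding Tcf factors (difference -0.74, limma adjusted p = 0.0108). The neighbours of Sfrp2 had a mean of -0.09, those of the Ctnnbip1 probe -0.31, and the second Ctnnbip1 probe, which was not called, differed by -0.13.

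**Figure D5:**
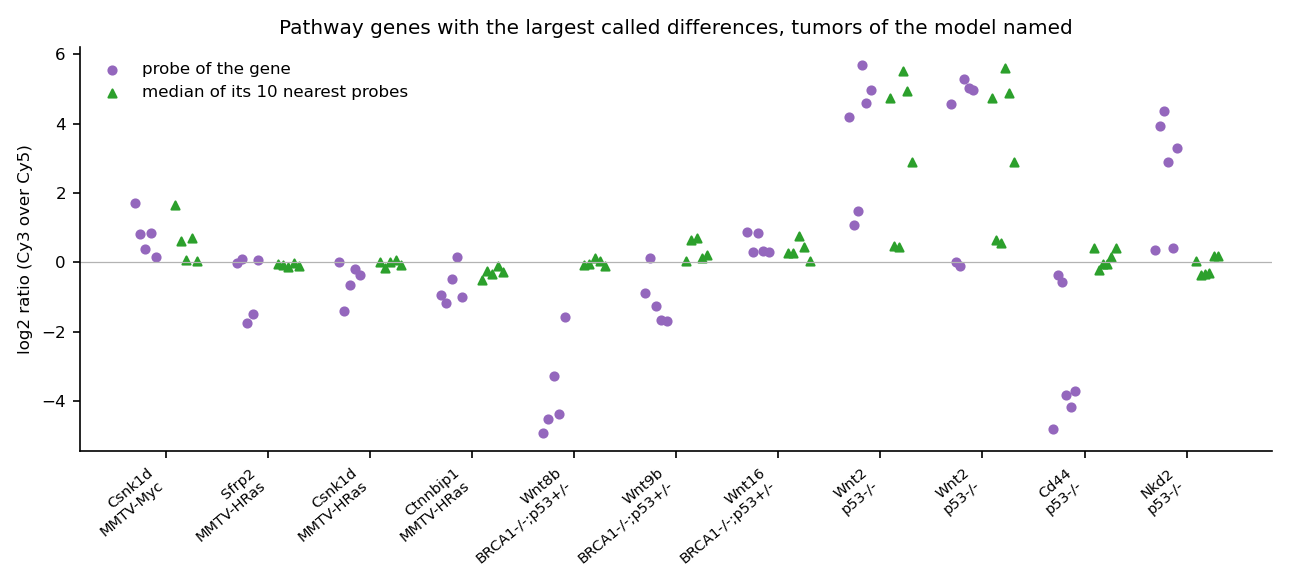
Log2 ratio (vertical axis) at the called probe of each named pathway gene in each tumor of the model named with it (circles), beside the median of its 10 nearest probes in the same tumor (triangles). For the high Wnt2 values in p53-/- and for Csnk1d in MMTV-Myc the neighbours follow the probe. For Wnt8b in BRCA1-/-;p53+/- and Cd44 in p53-/- they stay near 0.

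The probes whose values over the tumors were most like those of each member were found by Pearson's r. This describes 45 tumors, and all probes of a tumor share its array. On its own chromosome and more than 5 Mb away, the best match of Wnt1 was Ttll8 (r = 0.56), while that of Wnt10b was Tcf20 (0.71), of Lrp6 Akap3 (0.87), of Ctnnb1 AB212223 (0.87), of Apc Pard6g (0.81), of Axin1 Hnrnpm (0.79, over 44 tumors) and of Axin2 Rhbdf2 (0.80). The best matches of Wnt1 elsewhere were an unnamed probe on chromosome 6 (r = 0.72), Agfg1 on chromosome 1 (0.59) and an unnamed probe on chromosome 2 (0.58). For the other members the best match on another chromosome was Retreg2 for Wnt10b (0.62), AK035514 for Lrp6 (0.59), G2e3 for Ctnnb1 (0.79), Fam133b for Apc (0.69), Nupl1 for Axin1 (0.64) and Ascl3 for Axin2 (0.65). The top 3 of Ctnnb1, which include LOC636791 (0.78) and Agr2 (0.75), all lie on chromosome 12, and those of Axin1, which include Dhrs4 (0.61) and Naa16 (0.61), all on chromosome 14.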

How the data were processed

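Copy number was measured on 1 two-colour Agilent array per tumor. Per the file headers, the authors' scanner software (Feature Extraction 9.5.1.1, while the labels name 10.7) subtracted background, normalized the dyes and wrote a log10 ratio of Cy5 over Cy3 for each spot of the mm8 design. The deposited mean and background intensity values of both channels gave the alternative background correction and the checks of signal. The deposited interval table held 5412 intervals with a log2 level each, called by the authors on single tumors.

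Here control spots and outlier spots were left out, spots of a probe averaged, and each log10 ratio turned to log2 of Cy3 over Cy5 and centred on the autosomal median. Groups came from the labelled model, and replicates are tumors labelled as separate. Replicate numbers followed accession order and paired nothing. Wnt1 was tested by two-sided exact permutation, and all 42235 probes in 1 limma fit (limma 3.58.1, R 4.3.3) with Benjamini-Hochberg adjustment at 0.05, without covariates. Segments came from circular binary segmentation written in Python 3.11.15 (split statistic over 6, at least 5 probes, limit 0.2). The limma and segmentation steps were tested on simulated data. The array held 10 scan dates and 18 slides, of at most 4 arrays each, which were tried as random blocks.

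Members and lists were chosen with earlier results of these data known. Named genes were the 7 members, the 10 probes nearest to Wnt1, up to 3 called list genes with the largest difference per contrast, and the best matches by correlation (3 on other chromosomes, 1 on the same beyond 5 Mb). Of 27013 names on probes, 15226 matched a RefSeq symbol, and others kept their deposited name. Other alternatives changed the centre, the spot filter, the normalization, the weights, the caller and the tumors used.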

Additional observations from a re-analysis of the deposited data

Results flagged for a closer look

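Over 64 groups of tumors, 4 held a tumor whose gap to the nearest other was large against the range of its group. Chance passes this test in about 1 of 20 groups, a share near the one found here. In MMTV-Wnt1 the focal excess of Wnt1 in Wnt_4635 was -0.23, against 1.09 to 1.38 in the other 4 tumors. In C3(1)-Tag the Lrp6 ratio in C3TAg_7RPT was 1.13, against -0.20 to 0.16 in the rest of its model, and the MMTV-Her2/neu tumor H2N61 of nearly equal profile read 0.98. In MMTV-Wnt1 the Axin1 ratio in Wnt_4677 was -0.16, against 0.09 to 0.19, which only just passed the limit of the test. In p53-/- the Axin1 ratio in P53_2979 was 0.41, against -0.38 to -0.14, on an array with a spread of 0.448.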

How the results depend on the processing

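The Wnt1 difference of 0.93 and the focal difference of 1.06 kept their direction and passed under 10 of 14 alternatives each. With the dyes as labelled they were -0.93 and -1.06, by construction. Fewer arrays leave no room to pass within the 1 shared slide (1.44 and 1.63), its scan date (1.44 and 1.63) or the 6 arrays of 1 dye normalization setting (1.69 and 1.80), a split chosen after seeing the data, as were the slide and scan date subsets. Leaving out each tumor gave 0.82 to 1.18 and 0.96 to 1.36 (largest exact permutation p 0.000265). Of the 13 member probes, the F-test called 4, and 1 with scan date as a block, 9 with array weights and 2 of the 7 gene means (leave-one-out 4 in every fit). Of the contrast calls, 4 as reported, there were 7 with no centring, 2 with slide as a block, 1 with scan date, 11 with array weights, 2 on gene means and 1 without the 6 arrays of that setting, which by construction removes the 4 raised tumors. The 11 with array weights do not include 3 of the 4 calls as reported (both of Apc and that of Axin2). Leaving out each tumor gave 2 to 6, with 2 without Brca_54 or without P53_5809. Of the pathway list, 43 calls became 14 with slide, 16 with scan date, 106 with array weights and 24 on gene means, and 24 to 51 without single tumors (24 without P53_5809). Gained pairs (73) stayed within 50 to 96 over 6 alternatives and 67 to 73 without single tumors. Lost pairs (22) were 12 at a limit of 0.3 and 13 in the authors' intervals (7 of them among the 22), and 19 to 22 without single tumors. Beyond these constructions the cause was not tested. Without the 4 arrays of similar profiles the counts were 4, 4, 35, 63 and 20. No paired analysis was possible because replicate numbers followed accession order alone. The number of arrays limits the precision, and a single probe stands for Wnt1 and for Wnt10b.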
